A study of Mus musculus with 4 samples.

Results

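The lysosome and V-ATPase genes of bone marrow-derived macrophages (BMMs) were followed here under dimethyl itaconate (DI), a membrane permeable derivative of itaconate. The gene set held every gene that the deposited annotation places in the KEGG pathway Lysosome, and every gene whose symbol begins with Atp6v or Atp6ap. In that annotation 123 genes carried the pathway term and 26 had such a symbol, with 9 genes in both. The rule also named 7 genes of the osteoclast's resorptive machinery to leave out (Ctsk, Acp5, Tcirg1, Clcn7, Ostm1, Atp6v0d2 and Slc11a2). Of these, 5 carried the pathway term and were removed, and the others had not been in the set. This left 135 of the 34745 genes in the table. The rule used no measured value. By known role they were divided into 51 hydrolases, 6 activators and soluble cofactors, 23 membrane proteins and transporters, 30 genes of sorting and mannose 6-phosphate tagging, and 25 V-ATPase genes.

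The study asked how DI acts on BMMs while RANKL, the cytokine that drives osteoclast formation, is present. BMMs came from male wild-type C57BL/6 mice aged 8 weeks. After 12 h in medium lacking FBS they received RANKL (100 ng/mL) in complete medium for 24 h, together with DI (RANKL+DI) or, as the vehicle, DMSO (RANKL+DMSO). There were 2 messenger RNA libraries in each group, every library had RANKL, and no library without RANKL was analysed here. DI was used at 20 μM by the methods of the study and at 20 mM by the labels, which do not say whether the libraries of a group came from separate cultures or mice.

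Lysosomes are acidic organelles that break down proteins, glycans, lipids and nucleic acids. Soluble hydrolases are made in the endoplasmic reticulum, tagged with mannose 6-phosphate in the Golgi and carried by receptors and coated vesicles to the lysosome, where the V-ATPase, a proton pump with a cytosolic V1 sector that splits ATP and a membrane V0 sector that moves protons, keeps the lumen acidic. Macrophages are rich in lysosomes, since they digest what they engulf, and in osteoclasts the same pump is also placed at the cell surface to acidify the bone below. The transcription factors TFEB, TFE3 and MITF bind a short palindromic element, called CLEAR, that many lysosomal genes carry near their start.

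The libraries held between 16085692 and 19403480 counts, and the members took 7.78% and 7.65% of the counts in RANKL+DI libraries against 6.70% and 6.72% in RANKL+DMSO libraries. Levels are given as CPM, the count of a gene relative to the library size after scaling with TMM factors, and single genes are compared by level only as the deposited FPKM, which divides by gene length. Sums of CPM over genes are relative to the scaled library size and are not per length. They are therefore not the shares of all counts given above. A change is the log2 fold change of RANKL+DI over RANKL+DMSO, tested with edgeR's quasi-likelihood test on the counts of all genes, and a gene was called where its Benjamini-Hochberg adjusted p was under 0.05. Among the 12590 genes tested, 14.8% were called, 7.14% higher and 7.70% lower with DI, and their median log2 fold change was 0.00. The macrophage markers were abundant, with a summed level of 28690 and 29490 CPM with DI against 23360 and 22480 CPM with DMSO. Of these 8 markers (Cd68, itself a member here, among them), 5 were higher and 1 was lower with DI, while the 10 osteoclast markers summed to 730 and 714 CPM against 764 and 740 CPM, with 2 higher, 5 lower and Calcr at 0 counts throughout. Lyz2 made up 79.2% of the macrophage sum, and the other 7 summed to 5938 and 5724 CPM with DI against 5087 and 4867 CPM. Atp6v0d2, which was higher with DI, made up 63.2% of the osteoclast sum, and the other 9 summed to 222 and 205 CPM with DI against 337 and 323 CPM. The summed markers of neutrophils were between 9.23 and 11.4 CPM and those of stromal cells between 41.4 and 51.4 CPM, and markers of B cells, T and NK cells, mast cells, erythroid cells and dendritic cells each summed to at most 0.60 CPM in any library. The part of these shifts in the results was not tested, and in bulk RNA a change in the number of cells of a type and a change in RNA per cell cannot be told apart.

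Lysosomal and V-ATPase transcripts were mostly higher with DI, by small amounts. Of the 135 members, 115 passed the filter on low counts and 43 of them were called, 39 higher and 4 lower. The called share was thus 37.4%, with 33.9% higher and 3.48% lower, beside the shares of all tested genes given above. The median log2 fold change of the tested members was 0.16. In 87 of the 115 the values of the 2 groups did not overlap, against 58.6% of all tested genes. Of these, 73 were higher with DI, against 29.0% of all tested genes, and 14 were lower, against 29.6%. Deeply covered genes were called more often in general, so the comparison was also made among the genes with a mean of at least 1000 counts per library. Of 88 such members 40 were called and 37 were higher (42%), where 27.4% of all such genes were called and 15.5% were higher. Only 4 members rose and 1 fell with an absolute log2 fold change of at least 0.5. The 20 untested members included 11 without a single count in any library, among them the pump subunits Atp6v1b1, Atp6v1g3 and Atp6v1e2. A count of 0 allows up to 3 counts, which correspond to 0.16 to 0.18 CPM in these libraries.

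The count of called members fell to 26, of which 24 were higher, without RANKL+DMSO replicate 2, and was between 26 and 35 when each library was left out in turn. It also depended on the scaling. When libraries were scaled by their size only, the median of all tested genes moved to -0.10, 549 genes were called higher and 1930 lower in place of 899 and 969, and 30 members were called, 19 higher and 11 lower. Under that scaling the sign of 24 tested members turned, and none of them was among the 43 called. The median of the members relative to that of all tested genes stayed between 0.12 and 0.19 in each scaling, test and left-out library that was tried.

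**Figure D1:**
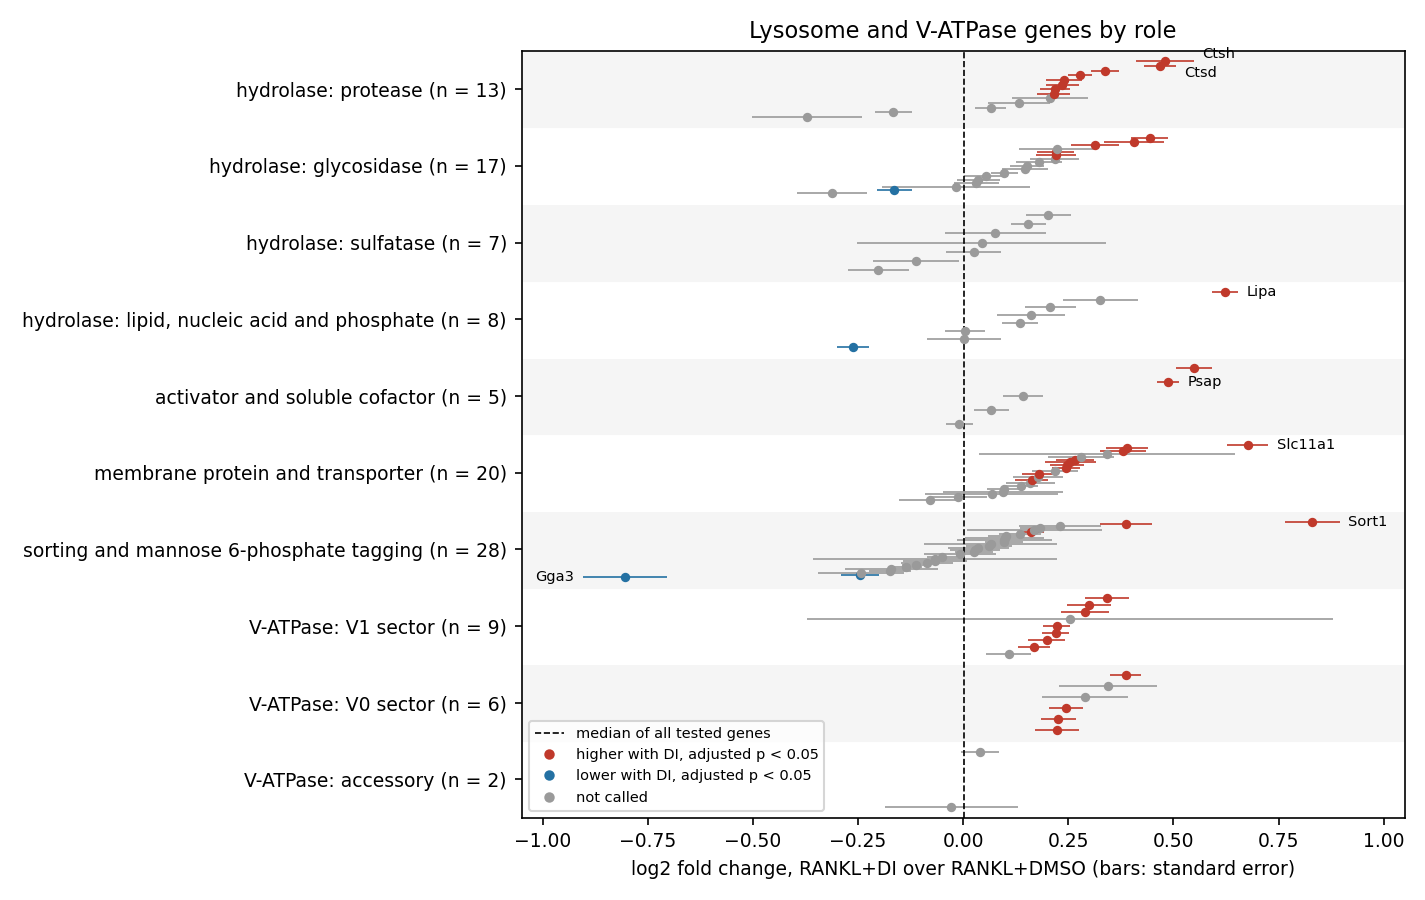
Log2 fold change of RANKL+DI over RANKL+DMSO (x axis) for each of the 115 tested members, in rows by role (y axis), with the standard error as a bar. Points right of the dashed line, the median of all tested genes, were higher with DI. Red points (39) were called higher, blue points (4) lower and grey points were not called. Some members beyond 0.45 in either direction are named, Sort1 and Gga3 being the farthest to each side.

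Summed levels showed which members held most of the difference. All members together stood at 80823 and 79072 CPM with DI and at 64632 and 64803 CPM with DMSO, a difference of 23.5%. The 6 members with the most counts, the cathepsins Ctsb, Ctsd, Ctsl and Ctss with Psap and Lipa, made up 56.9% of the members' summed CPM with DMSO, a share that also reflects transcript length, and were 32.4% higher in sum, while the other 129 members together were 11.8% higher. By class the summed CPM was higher by 33.9% for activators and soluble cofactors, by 26.1% for hydrolases, by 18.4% for membrane proteins and transporters and by 16.5% for V-ATPase genes. For sorting and tagging genes the summed CPM differed by 0.3%. These sums were not tested. They depend on the TMM factors, which were 0.963 and 0.967 with DI and 1.037 and 1.036 with DMSO. As shares of the unscaled counts the rises are smaller (all members 7.78% and 7.65% with DI against 6.70% and 6.72% with DMSO). With library size only, 7 of 28 tested sorting and tagging genes had a positive log2 fold change, against 16 with TMM factors.

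The promoters of the members were searched for 3 short motifs. The rule that chose the members used no sequence, but the CLEAR element is known from lysosomal genes. A higher share of it in the members than in all genes is therefore not an independent finding. RefSeq promoter windows (GRCm38.p6), which cover 250 bases before a start and 50 from it, were matched for 105 of the 135 members. The core of the CLEAR element, TCACGTGA, which reads the same on both strands, was present in the windows of 12 of these members (11.4%), against 304 of 27025 genes in the whole table (1.12%) and 205 of 9216 tested genes (2.22%). It was present in 7 of the 28 members that were higher with DI (25%) and were matched, in 1 of 3 that were lower and in 4 of 60 that were not called (6.67%). Without RANKL+DMSO replicate 2 these became 3 of 17 higher members (17.6%) and 9 of 72 not called (12.5%), and without RANKL+DI replicate 2 they became 4 of 22 (18.2%) and 8 of 67 (11.9%). The 7 were the protease gene Ctsd, the galactosidase gene Gla, the membrane genes Cd164 and Mcoln1 and the pump genes Atp6v0d1, Atp6v0e and Atp6v1a. The shorter E-box CACGTG, which every CLEAR core contains, was in 12 of the 28 higher members (42.9%) and in 12 of the 60 not called (20%), against 12.1% of tested genes. TGACNNNGC, the core of the antioxidant response element, searched on both strands, was in 6 of the 28 (21.4%) and in 11 of the 60 (18.3%), against 17.3% of tested genes. These are matches of letters and were not tested, and nothing was measured of any factor at these sites.

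**Figure D2:**
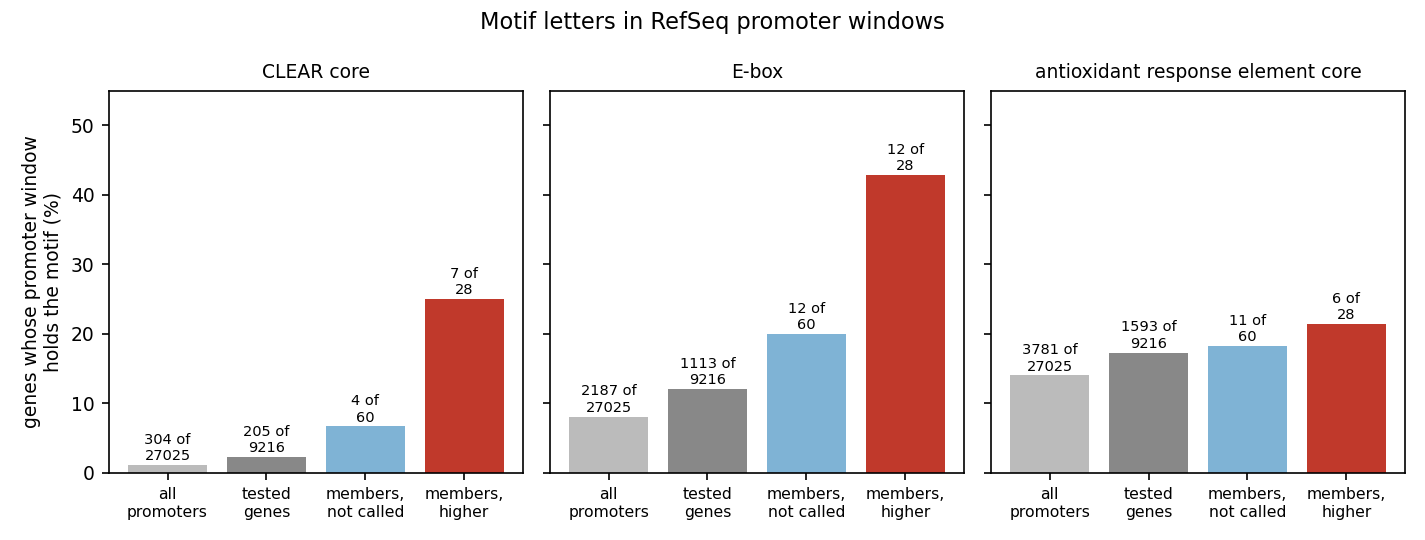
Share of genes whose RefSeq promoter window of 300 bases holds each motif (y axis, %), for all promoters, tested genes, members that were not called and members that were higher with DI (x axis). Numbers above the bars give genes with the motif of genes matched. The CLEAR core stands at 25% in members that were higher and at 6.67% in members not called (17.6% and 12.5% without RANKL+DMSO replicate 2), and the antioxidant response element core at 21.4% and 18.3%.

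Shown here are 150 bases of 6 promoters, 130 before the RefSeq start and 20 from it. Each is on the strand of the gene, with the CLEAR core in capitals. The promoters are those of the called members with the core that had the largest absolute log2 fold changes. The first is that of Ctsd, the aspartic protease cathepsin D (minus strand, chr7:142387808-142387957), with the core beginning 99 bases before the start. Cd164, which encodes the sialomucin endolyn (plus strand, chr10:41519370-41519519), had it 88 bases before the start. Mcoln1, the lysosomal calcium channel mucolipin 1 (plus strand, chr8:3500389-3500538), had it 46 bases before. In Atp6v0e (plus strand, chr17:26676266-26676415), a small V0 subunit, it lay just past the start, and in Atp6v0d1 (minus strand, chr8:105566045-105566194), the V0 subunit that joins the sectors, it spanned the start. The last, Igf2r (minus strand, chr17:12769687-12769836), the large mannose 6-phosphate receptor, was lower with DI and held the core at 49 and at 8 bases before the start.
Ctsd: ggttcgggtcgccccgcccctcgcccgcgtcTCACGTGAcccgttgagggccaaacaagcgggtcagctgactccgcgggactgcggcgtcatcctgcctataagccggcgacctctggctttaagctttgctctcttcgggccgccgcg
Cd164: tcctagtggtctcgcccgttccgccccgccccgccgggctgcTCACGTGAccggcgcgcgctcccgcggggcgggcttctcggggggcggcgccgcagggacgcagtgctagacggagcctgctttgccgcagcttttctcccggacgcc
Mcoln1: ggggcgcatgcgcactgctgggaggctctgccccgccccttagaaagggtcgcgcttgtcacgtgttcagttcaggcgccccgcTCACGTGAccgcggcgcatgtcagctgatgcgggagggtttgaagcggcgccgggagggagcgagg
Atp6v0e: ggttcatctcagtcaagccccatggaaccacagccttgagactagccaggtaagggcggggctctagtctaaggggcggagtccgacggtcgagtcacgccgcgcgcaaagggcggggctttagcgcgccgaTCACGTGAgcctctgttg
Atp6v0d1: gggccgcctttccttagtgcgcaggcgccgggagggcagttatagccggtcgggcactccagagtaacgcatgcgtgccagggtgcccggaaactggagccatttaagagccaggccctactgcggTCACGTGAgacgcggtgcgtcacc
Igf2r: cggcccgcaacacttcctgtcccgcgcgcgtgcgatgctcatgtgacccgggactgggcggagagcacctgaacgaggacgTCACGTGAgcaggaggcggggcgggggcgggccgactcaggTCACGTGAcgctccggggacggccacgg
Thus the core was not limited to members of a single class, and among members called lower it was found in Igf2r only.

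Of the 13 tested genes of lysosomal proteases, 8 rose with DI. The called share was 61.5%, beside 14.8% of all tested genes and 27.4% of those with a mean of at least 1000 counts per library. Ctsd had the highest mean FPKM of all members (3388 with DI and 2631 with DMSO). Its level was 13956 and 13245 CPM with DI and 10016 and 9646 CPM with DMSO. Both libraries with DI were well above both with DMSO, and the log2 fold change of 0.47 ± 0.037 (SE) had an adjusted p of 0.00157 by edgeR's test. Of its exons, 34.4% are shared on the same strand with the gene model Gm49369, so the 2 cannot be told apart there. Ctsb, a cysteine protease with both endopeptidase and exopeptidase activity, stood at 13989 and 13911 CPM with DI against 10757 and 11324 CPM with DMSO, a log2 fold change of 0.34. Ctss, the cathepsin that processes the invariant chain of MHC class II, was at 3919 and 3924 CPM against 3204 and 3262 CPM (0.28). In Ctsb and Ctss the DI libraries were close to each other, and no library with DMSO reached them.

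The remaining called proteases were Ctsh, an aminopeptidase (0.48), Lgmn, the asparaginyl endopeptidase that matures other cathepsins (0.24), Ctsz, a carboxypeptidase (0.24), Tpp1, the tripeptidyl peptidase lost in a childhood lysosomal storage disease (0.22), and Ctsl (0.22). Of the 5 tested proteases that were not called, Napsa, Ctso and Ctsa had log2 fold changes between 0.07 and 0.21, Ctsc, which activates granule serine proteases, had -0.17, and Ctsf had -0.37 (adjusted p = 0.119 by edgeR). Both libraries of Ctsf with DI (6.99 and 7.25 CPM) lay below both with DMSO (9.76 and 8.64 CPM), but at these low counts the difference did not pass the test. Lgmn missed the threshold without RANKL+DI replicate 1 (adjusted p = 0.0542) and without RANKL+DMSO replicate 2 (0.0595) in edgeR, and the other 7 were called without any one library. Of the exons of Ctsl, 26.8% overlap Gm47123 on the opposite strand, and 12.8% of those of Ctsb overlap Fdft1; no source says that reads were counted by strand, so reads of such partners cannot be separated.

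Of the 8 tested enzymes that degrade lipids, nucleic acids and phosphate esters, Lipa rose and Acp2 fell. This called share of 25% lay between the 14.8% of all tested genes and the 27.4% of those with a mean of at least 1000 counts per library. Lipa (ENSMUSG00000024781, GRCm38 chromosome 19, 34492318 to 34527474) encodes lysosomal acid lipase, which frees cholesterol and fatty acids from lipoproteins taken up by the cell. It stood at 3702 and 3641 CPM with DI and at 2356 and 2414 CPM with DMSO. The groups were far apart relative to the gap within each, and Lipa was 54.0% higher with DI (log2 fold change 0.62 ± 0.031 SE, adjusted p = 0.000469 by edgeR). Acp2, the lysosomal acid phosphatase, went the other way, with 222 and 218 CPM against 262 and 265 CPM. Its log2 fold change was -0.26 (adjusted p = 0.00909 by edgeR), and 12.6% of its exons overlap Ddb2 on the opposite strand. The acid ceramidase gene Asah1 was not called, with a log2 fold change of 0.33 (adjusted p = 0.0623 by edgeR). RANKL+DI replicate 1 was high for Asah1 (502 CPM, against 415 CPM in replicate 2 and 372 and 359 CPM with DMSO), and without RANKL+DI replicate 2 the gene was called (0.46, adjusted p = 0.00255). The palmitoyl thioesterase gene Ppt1 (0.14), the phospholipase gene Pla2g15 (0.21), the sphingomyelinase gene Smpd1 (0.00) and the acid nuclease gene Dnase2a (0.00) were not called.

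**Figure D3:**
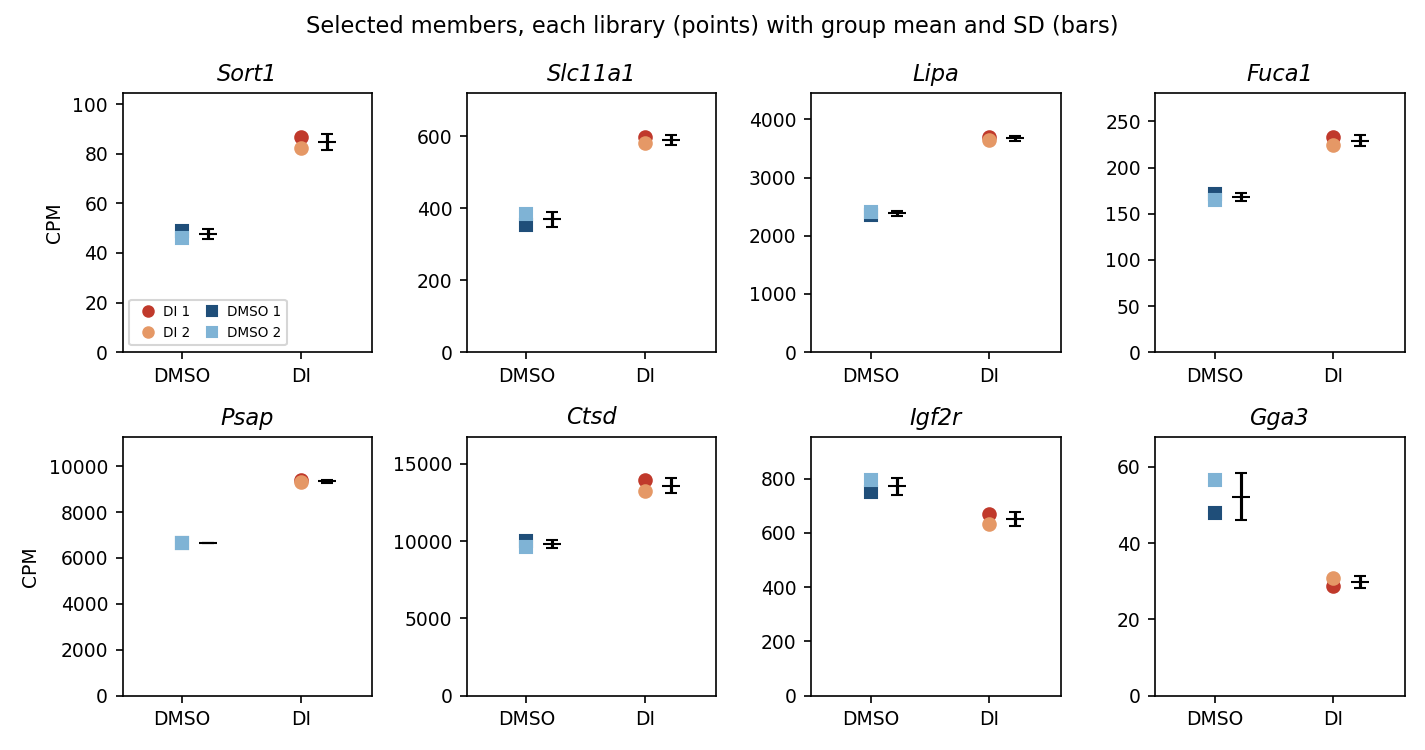
Level in CPM (y axes, starting at 0, scale set for each gene) of 8 members in the 2 RANKL+DMSO libraries (squares) and the 2 RANKL+DI libraries (circles), with the mean and SD of each group beside the points. In Sort1, Slc11a1, Lipa, Fuca1, Psap and Ctsd both DI libraries lie above both DMSO libraries, and in Igf2r and Gga3 both lie below.

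Of the genes counted as glycosidases, which trim sugars from glycoproteins and glycolipids, 17 of 17 were tested, 5 rose and 1 fell. Their called share was 35.3%, where 14.8% of all tested genes and 27.4% of those with a mean of at least 1000 counts per library were called. Fuca1, which removes fucose, was at 234 and 225 CPM with DI and at 172 and 165 CPM with DMSO, a log2 fold change of 0.44 (adjusted p = 0.00298 by edgeR). The others that rose were Aga (0.41), Gaa, which degrades glycogen (0.31), the α-galactosidase gene Gla (0.22) and the α-mannosidase gene Man2b1 (0.22). Aga was counted in this class although its enzyme cleaves the bond between asparagine and glycan rather than trimming sugars. Hexa, which encodes the α chain of β-hexosaminidase, was at 741 and 705 CPM with DI and 662 and 640 CPM with DMSO. It had a log2 fold change of 0.15 and was not called (adjusted p = 0.0616 by edgeR). Its groups did not overlap, as in 58.6% of all tested genes. Without RANKL+DMSO replicate 2, Aga, Gaa, Gla and Man2b1 missed the threshold in edgeR (adjusted p between 0.0688 and 0.0945), and 2 or 3 of these 4 did so without each of the other libraries (between 0.0631 and 0.0977). Fuca1 was called without any one library.

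The sulfatases, which remove sulfate from glycosaminoglycans and sulfatides, did not pass the test. Of 7, edgeR called 0, 3 had an unadjusted p under 0.05, and DESeq2 and limma-voom called 0. Only 14.8% of all tested genes were called, so 0 calls among 7 genes does not set the sulfatases apart. Their median log2 fold change was 0.04. Galns had 0.20 (adjusted p = 0.0597 by edgeR) and Ids, the iduronate sulfatase, 0.02. Counted together, 16 of the 45 tested hydrolases were called, 14 higher and 2 lower, with a median of 0.15. The number was 10 without RANKL+DMSO replicate 2, with 9 higher.

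Of the 5 tested activators and cofactors, 2 rose, Psap among them. Psap (ENSMUSG00000004207, chromosome 10, 60277627 to 60302597) encodes prosaposin, which is cut into the saposins that present sphingolipids to their hydrolases.
It stood at 9394 and 9296 CPM with DI and at 6667 and 6662 CPM with DMSO. The libraries of each group differed by little beside the gap between groups, and the log2 fold change was 0.49 ± 0.027 (SE), with an adjusted p of 0.000562 by edgeR. The cholesterol carrier Npc2 did not follow, with 957 and 938 CPM with DI and 956 and 952 CPM with DMSO, and a log2 fold change of -0.01. The ganglioside activator Gm2a (0.07) and Sumf1, which activates sulfatases in the endoplasmic reticulum (0.14), were not called. Psap kept its call in each of the 13 alternatives that set no minimum on the fold change, but at 0.49 it lay under the added threshold of 0.5.

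Among membrane proteins and transporters, 9 of 20 tested genes rose and the other 11 were not called, with a median log2 fold change of 0.20. Slc11a1 (ENSMUSG00000026177, chromosome 1, 74375195 to 74386062) encodes NRAMP1, which pumps metal ions out of the phagosome and limits the growth of engulfed microbes. It stood at 599 and 580 CPM with DI and at 354 and 383 CPM with DMSO. The lowest library with DI was far above the highest with DMSO, and the log2 fold change of 0.68 ± 0.049 (SE) had an adjusted p of 0.00117 by edgeR. Its relative Slc11a2, which moves iron out of endosomes and is not a member, had 0.19 and was not called.

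The structural glycoproteins rose less. Lamp1, which coats the inner face of the lysosomal membrane and had the highest FPKM of the class, was at 2504 and 2458 CPM with DI and at 2056 and 2134 CPM with DMSO (0.24, adjusted p = 0.00756 by edgeR). Lamp2, which also serves in chaperone-mediated autophagy, had 0.25, the tetraspanin Cd63 0.27, Cd68, a scavenger receptor of macrophages, 0.18, and Cd164 0.38. Litaf, which sorts cargo in late endosomes, had 0.39, the calcium channel gene Mcoln1 0.26 and the acetyltransferase gene Hgsnat 0.16. Laptm5, a membrane protein of blood cells, had 0.22 and was not called (adjusted p = 0.0516 by edgeR), but was called by DESeq2 (0.0201) and without RANKL+DI replicate 2 (0.30, 0.00917). The cholesterol exporter Npc1 (0.14), the cystine exporter Ctns (0.28), the glucocerebrosidase receptor Scarb2 (0.10) and Cln3 (-0.08) were not called. In edgeR, Slc11a1, Litaf, Cd164, Lamp1 and Lamp2 were called without any one library, whereas Mcoln1 and Hgsnat lost the call without each library in turn (adjusted p between 0.0935 and 0.154). Cd63 missed the threshold without RANKL+DMSO replicate 1 (0.0554), and Cd68 without either DI library and without RANKL+DMSO replicate 2 (between 0.057 and 0.125).

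Sorting and tagging genes were called in both directions and their median was close to that of all genes. Of 28 tested, 3 rose and 2 fell, a called share of 17.9% beside 14.8% of all tested genes. The median log2 fold change was 0.03. Yet this class held the members with the largest rise and the largest fall. Sort1 (ENSMUSG00000068747, chromosome 3, 108284082 to 108361511) encodes sortilin, which carries prosaposin, acid sphingomyelinase and some cathepsins to the lysosome without the mannose 6-phosphate tag. It was at 86.9 and 82.3 CPM with DI and at 49.0 and 46.2 CPM with DMSO. Both DI libraries were above both DMSO libraries, and Sort1 was 77.7% higher with DI (log2 fold change 0.83 ± 0.065 SE, adjusted p = 0.0015 by edgeR).

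Gga3 (ENSMUSG00000020740, chromosome 11, 115584255 to 115604051) encodes an adaptor that loads mannose 6-phosphate receptors into clathrin vesicles at the Golgi. It was at 28.7 and 31.0 CPM with DI and at 47.8 and 56.5 CPM with DMSO. The groups were apart although the DMSO libraries differed between themselves, and the log2 fold change was -0.80 ± 0.10 (SE), with an adjusted p of 0.00553 by edgeR. Its paralogs Gga1 (0.06) and Gga2 (-0.17) were not called. Igf2r, the large mannose 6-phosphate receptor, was at 668 and 634 CPM against 749 and 795 CPM (-0.25, adjusted p = 0.0201 by edgeR), and M6pr, the small one, at 435 and 430 CPM against 467 and 467 CPM (-0.11, adjusted p = 0.0828). Both receptors were thus lower in each DI library than in each DMSO library, as were 29.6% of all tested genes. Only the difference of Igf2r passed the test.

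Of the genes of the vesicle coats, Ap3s1 and Cltc were called. Ap3s1, a subunit of the AP-3 adaptor that serves lysosome-related organelles, rose by a log2 fold change of 0.39, although near-identical copies exist (Ap3s1-ps2 covers 38.1% of its transcript at 99.1% identity) and reads could be split among them. Cltc, the clathrin heavy chain, rose by 0.16. Gnptab, which encodes the transferase that makes the tag, was at 188 and 147 CPM with DI and 191 and 186 CPM with DMSO and was not called (-0.17), but it was called lower without RANKL+DI replicate 1 (-0.36, adjusted p = 0.00967 by edgeR). Nagpa, which uncovers the tag, had 0.17 and was called higher without the same library (0.40, adjusted p = 0.0364 by edgeR). Sort1, Gga3 and Ap3s1 were called without any one library. Igf2r missed the threshold without RANKL+DI replicate 2 (0.0685) and without RANKL+DMSO replicate 2 (0.0644), and Cltc without either DI library and without RANKL+DMSO replicate 2 (adjusted p in edgeR between 0.0572 and 0.0851). The class had 3 calls without RANKL+DI replicate 2 and 3 without RANKL+DMSO replicate 2. When scaled by library size only, 8 of its genes were called, 2 higher and 6 lower, with a median of -0.07.

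V-ATPase genes were higher with DI in both sectors of the pump. Of 25 genes, 17 were tested, 16 had a positive log2 fold change and 11 were called, all of them higher, with a median of 0.23. In the V1 sector 7 of 9 tested genes were called (median 0.22) and in the V0 sector 4 of 6 (0.27). The largest called change was that of Atp6v0a1, a subunit of the proton path, which was at 296 and 298 CPM with DI and at 225 and 230 CPM with DMSO (0.39 ± 0.038 SE, adjusted p = 0.00283 by edgeR). Atp6v1g1, which belongs to the peripheral stalk, was at 192 and 202 CPM against 160 and 150 CPM (0.34). The groups were apart in both, and near-identical copies exist for Atp6v1g1 (Gm13453 covers 31.5% of its transcript at 99.4% identity).

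The catalytic and regulatory V1 subunits lay close together. Atp6v1a, the catalytic subunit, was at 1252 and 1221 CPM with DI and at 1062 and 1057 CPM with DMSO (0.22, adjusted p = 0.00871 by edgeR), and Atp6v1b2, the other subunit of the ATP-splitting head, at 904 and 902 CPM against 778 and 772 CPM (0.22). Atp6v1h (0.30), Atp6v1f (0.29), Atp6v1e1 (0.20) and Atp6v1c1 (0.17) rose also, while Atp6v1d, of the central stalk, had 0.11 and was not called. In V0, Atp6v0e (0.24), Atp6v0d1 (0.23) and Atp6v0b (0.22) rose. Atp6v0c, which forms the rotating ring and had the highest mean FPKM of the V-ATPase genes, was not called. It was at 948 and 988 CPM with DI but at 663 and 864 CPM with DMSO (0.34, adjusted p = 0.11 by edgeR), and was called without RANKL+DMSO replicate 2 (0.55, 0.00382). The spread between the DMSO libraries was thus large for this gene beside that of its neighbours.

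**Figure D4:**
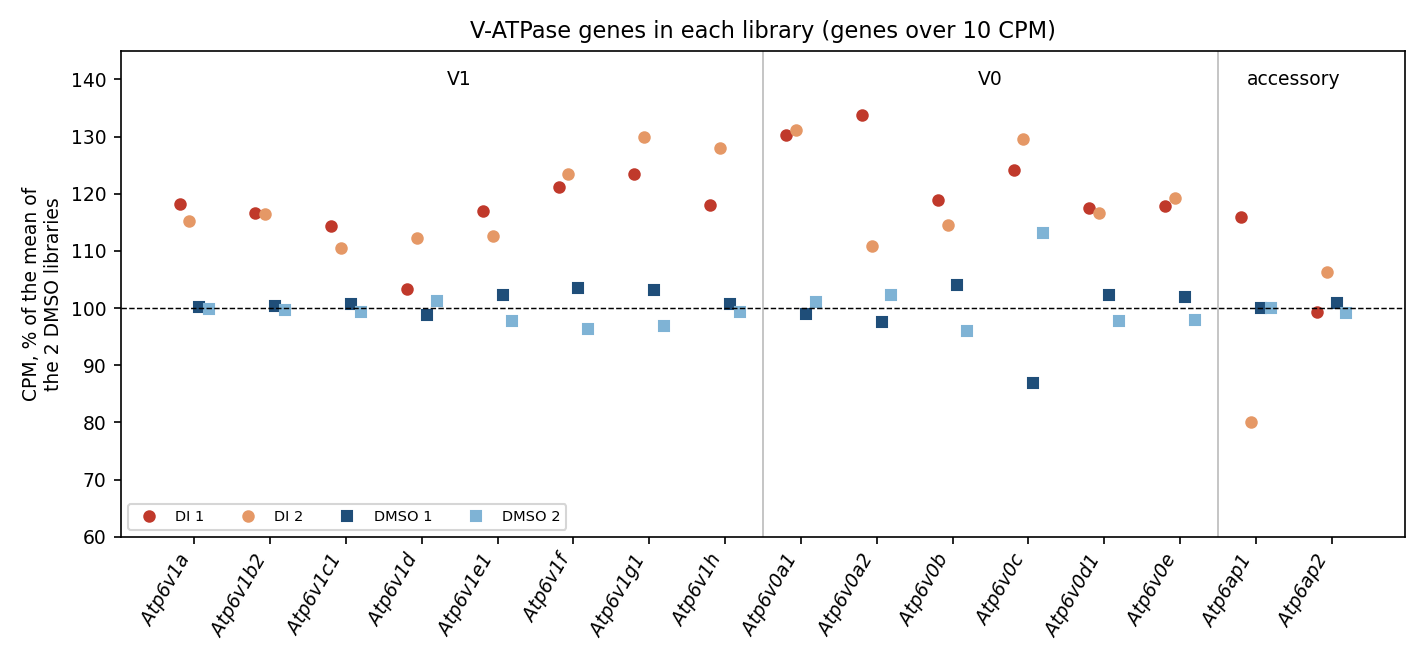
Level of each V-ATPase gene above 10 CPM in each library, as a percent of the mean of the 2 RANKL+DMSO libraries (y axis, starting at 60), by sector (x axis). Circles are RANKL+DI libraries and squares RANKL+DMSO libraries. The DI libraries lie above the DMSO libraries in all the V1 and V0 genes plotted, whereas both accessory genes overlap.

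The accessory genes were not called. Atp6ap2, the prorenin receptor, was at 339 and 362 CPM with DI and at 344 and 338 CPM with DMSO (0.04), and Atp6ap1, which helps to assemble V0, at 477 and 330 CPM against 411 and 411 CPM (-0.03). By edgeR 0 of the 2 had an adjusted or unadjusted p under 0.05, and DESeq2 and limma-voom called 0. The DI libraries of Atp6ap1 lay on opposite sides of the DMSO libraries, so that edgeR called it lower without RANKL+DI replicate 1 (-0.32, adjusted p = 0.0103) and higher without RANKL+DI replicate 2 (0.22, adjusted p = 0.0427). Their summed level with Atp6ap1l was 816 and 692 CPM with DI and 755 and 749 CPM with DMSO.

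Several V-ATPase subunits have more than a single isoform, and their levels are given on the FPKM scale. Atp6v1b2 stood at 133 with DI and 123 with DMSO, while Atp6v1b1 of the kidney and inner ear had 0 counts in all libraries. Atp6v1c1 was at 157 and 150 FPKM and Atp6v1c2 had at most 2 counts. Atp6v1e1 was at 51.2 and 48.0 FPKM with Atp6v1e2 at 0 counts. For the G subunit, Atp6v1g1 was at 167 and 142 FPKM, the neuronal form Atp6v1g2 had between 7 and 25 counts (0.25 ± 0.63 SE, adjusted p = 0.831 by edgeR) and Atp6v1g3 had 0. Among the a subunits, Atp6v0a2 of the Golgi was at 4.90 and 4.31 FPKM beside 29.6 and 24.3 FPKM for Atp6v0a1, and Atp6v0a4 had at most 2 counts. Atp6v0a2 was not called (0.29, adjusted p = 0.119 by edgeR), with 57.7 and 47.8 CPM with DI and 42.1 and 44.2 CPM with DMSO, but was called without RANKL+DI replicate 2 (0.42, adjusted p = 0.03). The osteoclast forms of the a and d subunits, Tcirg1 and Atp6v0d2, are among the genes that were left out. Tcirg1 was at 99.3 FPKM with DI and 93.2 FPKM with DMSO, above each of the a subunits among the members, and Atp6v0d2 at 179 and 160 FPKM. Tcirg1 had a log2 fold change of 0.19 (adjusted p = 0.0305 by edgeR) and missed the threshold in 5 of 13 alternatives (adjusted p up to 0.2), among them those without either DI library or without RANKL+DMSO replicate 2. Atp6v0d2 had 0.27 (0.00623), whereas the resorptive enzymes Acp5 (-0.95, 0.00248) and Ctsk (-0.58, 0.00659) were lower and Clcn7 (0.07) and Ostm1 (0.13) were not called.

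Several of these calls depended on single libraries. In edgeR, Atp6v0a1, Atp6v1g1, Atp6v1a and Atp6v1b2 were called without any one library. Atp6v1c1 and Atp6v1e1 missed the threshold without each library in turn (adjusted p between 0.0521 and 0.152), Atp6v0d1, Atp6v0b and Atp6v1f without either DI library and without RANKL+DMSO replicate 2 (between 0.0519 and 0.121), Atp6v1h without either DMSO library (0.0582 and 0.0662) and Atp6v0e without RANKL+DMSO replicate 2 (0.06). The class had 7 calls without RANKL+DI replicate 1, of which 1, Atp6ap1, was lower, and 5 without RANKL+DMSO replicate 2. When scaled by library size only 4 V-ATPase genes were called, all higher, and with limma on log2(FPKM + 1) 2 were. The median of the class relative to that of all tested genes stayed between 0.19 and 0.25 under each alternative.

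**Figure D5:**
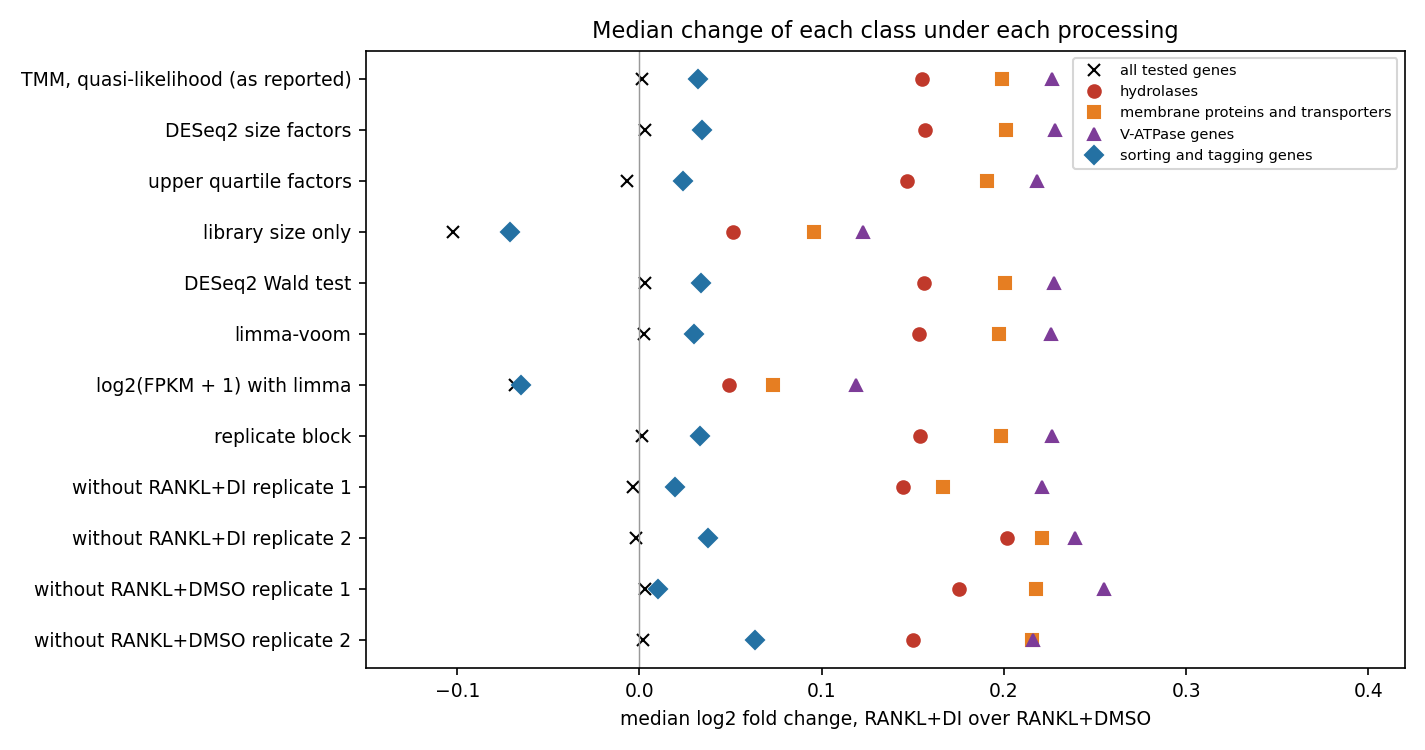
Median log2 fold change (x axis) of the tested genes of each class and of all tested genes, under each processing and with each library left out (rows, y axis). V-ATPase genes, membrane proteins and hydrolases lie right of all tested genes in each row, also where library size only or log2(FPKM + 1) moves every class to the left, and sorting and tagging genes lie close to all tested genes.

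The called share was 64.7% for V-ATPase genes, 45% for membrane proteins and transporters, 40% for activators, 35.6% for hydrolases and 17.9% for sorting genes. Of all tested genes 14.8% were called, and of those with a mean of at least 1000 counts per library 27.4%. The medians of the classes, in the same order, were 0.23, 0.20, 0.14, 0.15 and 0.03. The order of the called shares turned with the processing. Without RANKL+DMSO replicate 2 they were 29.4%, 30%, 40%, 22.2% and 10.7%, and with library size only 23.5%, 20%, 40%, 26.7% and 28.6%, again in the same order. The differences between classes were not tested, and the quartiles of the log2 fold change overlapped between hydrolases (0.03 to 0.22), membrane proteins (0.13 to 0.27) and V-ATPase genes (0.20 to 0.29).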

How the data were processed

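RNA was measured by mRNA sequencing in 4 libraries of RANKL-treated BMMs, 2 with DI and 2 with DMSO, grouped by their labels. The authors deposited raw counts for each gene in each library, not normalized, and FPKM values scaled to gene length and library total. Both deposited tables, of which the second adds KEGG terms, hold the same values. The submitters' processing notes name GRCm38 and mm10; the aligner, counter and annotation release are not given in the sources used here.

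The counts were analysed as deposited in R 4.3.3 with edgeR 4.0.16 (TMM factors, default filter on low counts, quasi-likelihood test with the treatment as the only term, Benjamini-Hochberg adjustment over 12590 genes), because the methods of the study name no test for these data. Depth was 16085692 to 19403480 counts per library, TMM factors were 0.963 to 1.04 and the common biological coefficient of variation was 0.0905. Libraries of a group differed beyond sampling noise (chi-square per degree of freedom 8.06 and 8.23) and were used as separate replicates. Since no label says that they are separate cultures, p-values measure only the spread between these samples, which may be technical, and the floor of 3 counts covers counting error only. The alternatives were DESeq2 1.42.0 size factors and Wald test, upper quartile factors, library size only, other filters on low counts, limma-voom and log2(FPKM + 1) with limma 3.58.1, a replicate block, an added fold threshold and each library left out in turn. The steps were tested on simulated data with planted absolute log2 fold changes of at least 0.5, so recovery of smaller changes was not tested.

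Members, lists and alternatives were chosen with earlier results of these data known. Named genes were called members with an absolute log2 fold change of at least 0.5, the member of each role with the highest FPKM or the smallest p, subunit genes with isoforms, the genes left out, and the TFEB family; some of these are not reported here. All other members named were chosen after their values were seen, as were the roles of 2 genes (Gm21685 and Atp6v0c-ps1), and neighbouring genes named in the closing section. All 135 members lay on the same chromosome in GENCODE M21, 95 with the same start and end, and 23 had a near-identical copy (BLAST+ 2.17.0, identity of 95% or more across 20% or more of the transcript). Copies and overlaps are named above for some members only. Called members with a copy also included Cd63 (Cd63-ps, 28.6% of the transcript at 98.3% identity) and Atp6v1f (AC169506.3, 25.1% at 98.5%). Promoter sequences are from RefSeq.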

Additional observations from a re-analysis of the deposited data

How the results depend on the processing

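The direction of each called member was kept under the alternatives tried, while counts of calls moved. With an absolute log2 fold change of at least 0.5 also required, which can only lower a count, 748 genes, 5 members, 1 hydrolase, 1 membrane gene, 2 sorting genes and 0 V-ATPase genes were called (edgeR, at any size 1868, 43, 16, 9, 5 and 11). Library size only gave 4 membrane, 8 sorting and 4 V-ATPase genes. limma on log2(FPKM + 1) gave 27 members (16 higher, 11 lower), 3 membrane and 2 V-ATPase genes. Leaving out each library gave 1087 to 1394 genes, 26 to 35 members, 10 to 15 hydrolases, 6 to 7 membrane genes, 3 to 6 sorting genes and 5 to 8 V-ATPase genes, the lowest counts of all genes without RANKL+DMSO replicate 2 (1087) and RANKL+DMSO replicate 1 (1120). The arm left with 1 library is then assumed to vary like the other, and the cause was not tested. Of the 43 called members 24 were called without any one library and 17 in each of the 13 alternatives that set no minimum on the fold change. Among named genes, signs turned for uncalled ones only. With library size only and with log2(FPKM + 1), Atp6ap2 had -0.0633 and -0.0637 and Clcn7 -0.0351 and -0.0344. With each library left out, Atp6ap2 ranged from -0.0072 (without RANKL+DI replicate 2) to 0.0899, Atp6v1g2 from -0.58 (without RANKL+DI replicate 2; -0.26 without RANKL+DMSO replicate 2) to 1.15, and Tfec from -0.35 to 0.11 (without RANKL+DI replicate 1). The replicate numbers did not pair the libraries (correlation of same-numbered deviations -0.05), and the replicate block gave 1389 genes, 40 members, 16 hydrolases, 7 membrane, 5 sorting and 10 V-ATPase genes. Calls were fewer at low depth: of the 27 tested members with a mean under 1000 counts, 3 were called (11.1%), against 40 of 88 above it (45.5%).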

Other observations

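Regulators that sit on the lysosome and genes of autophagy were examined as neighbouring lists. Of the 19 genes of the TFEB family and of mTORC1 at the lysosome, 5 rose and 1 fell in edgeR's test, and the median change was 0.16 (log2), while 14.8% of all tested genes were called. Tfe3, a transcription factor that binds CLEAR elements, was at 162 and 153 CPM with DI and at 128 and 131 CPM with DMSO (0.28, adjusted p = 0.0151 by edgeR), but missed the threshold without RANKL+DMSO replicate 1 (0.0693), without RANKL+DMSO replicate 2 (0.0511) and with log2(FPKM + 1) in limma (0.146). Tfeb was at 48.0 and 47.4 CPM against 43.8 and 31.0 CPM (0.35) and was not called, but was called without RANKL+DMSO replicate 1 (0.62, adjusted p = 0.0171 by edgeR). Mitf (0.16) and Tfec (-0.10) were not called. Of the complex that anchors mTORC1 to the membrane, Lamtor4 (0.36), Rragc (0.25) and Lamtor1 (0.22) rose, Lamtor1 only just (adjusted p = 0.04999 by edgeR). Lamtor2, Lamtor3, Lamtor5, Rraga, Rragb and Rragd were not called, with log2 fold changes from -0.58 (Rragb) to 0.30 (Rragd). Fnip2 (0.23) also rose, while Rptor, the mTORC1 scaffold, was lower (-0.26). Of all tested genes 7.14% were called higher, and of those with a mean of at least 1000 counts per library 15.5%. In the autophagy list the share was 23.8%, as 5 of 21 genes rose and 16 were not called, with a median of 0.14. The largest change there was that of Sqstm1, the receptor that hands ubiquitinated cargo to the autophagosome, at 1364 and 1365 CPM with DI and 899 and 803 CPM with DMSO (0.68, adjusted p = 0.0018 by edgeR). The LC3 relatives Gabarapl1 (0.39), Map1lc3a (0.39), Gabarap (0.26) and Gabarapl2 (0.25) also rose, whereas Map1lc3b (0.28) was not called. Map1lc3a (adjusted p = 0.0474 by edgeR) and Gabarapl2 (0.0464) lay close to the threshold.

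Lysosomal proteins that the pathway term leaves out were a further list. Of 19 tested, 6 rose (31.6%) and 13 were not called, with a median of 0.13. Among all tested genes 7.14% were called higher, and among those with a mean of at least 1000 counts per library 15.5%. Creg1, a lysosomal glycoprotein, was at 1874 and 1853 CPM with DI and at 1048 and 1071 CPM with DMSO, a log2 fold change of 0.81 (adjusted p = 0.000258 by edgeR), with the groups far apart. Slc15a3, which exports peptides from the lysosome, had 0.45 and the glycoprotein gene Gpnmb 0.25, while progranulin (Grn, -0.07) and the thiol reductase gene Ifi30 (-0.04) were not called. Among genes for fusion and positioning of lysosomes, Stx17 (0.49), Arl8a (0.30) and Plekhm1 (0.26) rose of 19 tested, a share of 15.8%. Of all tested genes 14.8% were called and 7.14% were called higher. Among genes with a mean of at least 1000 counts per library 15.5% were called higher, close to the share of this list. Of the 8 inhibitors of cysteine proteases 2 were tested, and Cstb rose (0.22).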
